A study of Mus musculus with 6 samples.

Results

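This section concerns the genes of nucleocytoplasmic transport, that is, the receptors that carry proteins and RNA through the nuclear pore, the Ran cycle that gives the traffic its direction, and the nucleoporins that build the pore. Members were chosen by symbol alone. They were every listed gene whose name begins with Kpna, Kpnb, Ipo, Xpo, Tnpo or Nup followed by a digit, together with 11 further genes, namely Cse1l, Xpot, Ran, Rangap1, Ranbp1, Ranbp2, Rcc1, Ndc1, Tpr, Pom121 and Sec13. This gave 53 of the 27378 genes listed. No expression value enters the rule, but the members were chosen with earlier results of these data known. Libraries came from whole brain of wild-type male C57BL/6J mice, a standard inbred strain. The PS group (n = 3) received polystyrene nanoplastics through the nose for 28 days, and the control group (n = 3) was given sterile distilled water intranasally, also for 28 days. Age, dose and particle size are not given in the labels used here, nor whether each library came from a separate animal, so p-values measure the spread between these libraries, which may be partly technical.

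Proteins too large to diffuse through the nuclear pore are carried by karyopherins. Importins bind a cargo in the cytoplasm and release it in the nucleus when they meet Ran loaded with GTP, while exportins bind cargo together with RanGTP and release it when GTP is hydrolysed on the cytoplasmic side. The pore itself is a set of stacked rings lined with flexible phenylalanine-glycine repeats, and neurons keep many of its scaffold proteins for very long times. The study concerned TDP-43, an RNA-binding protein that enters the nucleus through importin alpha and importin beta and that leaves it and aggregates in amyotrophic lateral sclerosis, so RNA levels of the transport machinery are set side by side here.

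No member passed the test between PS and control libraries. Of the 53 members, 51 had a mean of at least 1 FPKM over the 6 libraries and were tested with limma on log2(FPKM + 1). None was called at an adjusted p under 0.05, where 20 of all 12229 genes tested were, or 0.164%. Blocking on the replicate number gave 48 calls in all, again with no member among them. The lowest adjusted p of a member was 0.752, and log2 fold changes ran from -0.21 to 0.12. At an unadjusted p under 0.05, 2 members were lower in PS and 0 higher, against 3.29% and 2.66% of all tested genes and 5.94% in either direction. They were Rcc1 and Nup54. Limma-voom on recovered reads put 3 members under this unadjusted p (Nup54, Nup93 and Rcc1), against 6.13% of all genes, and called none, against 0.237%. Weighting the libraries gave calls for 2 members, Rcc1 and Nup54, both lower in PS, where 5.17% of all genes were called and 2.74% were called lower. Fewer cells of a type and less RNA per cell cannot be told apart in such bulk samples.

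Intervals from the main limma fit show the size of difference that the values allow, gene by gene. They rest on the spread between these libraries and are not adjusted for the number of genes. The 95% interval of the log2 fold change lay within a 1.5-fold change in either direction for 51 of 51 tested members and within a 1.2-fold change for 42, against 97.65% and 60.49% of all tested genes. The members whose intervals reached past 1.2-fold were Nup133, Nup153, Nup210, Nup37, Nup43, Nup54, Nup93, Ranbp2 and Rcc1. An offset of 1 FPKM narrows the intervals of weakly expressed genes, and with an offset of 0.1 the counts were 51 and 33, against 93.32% and 44.65% of all tested genes. The median residual SD between libraries of a group was 0.066 for the members and 0.093 for all tested genes on the log2 scale. Among genes of like level, the median member stood at percentile 28.35 of this spread.

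**Figure D1:**
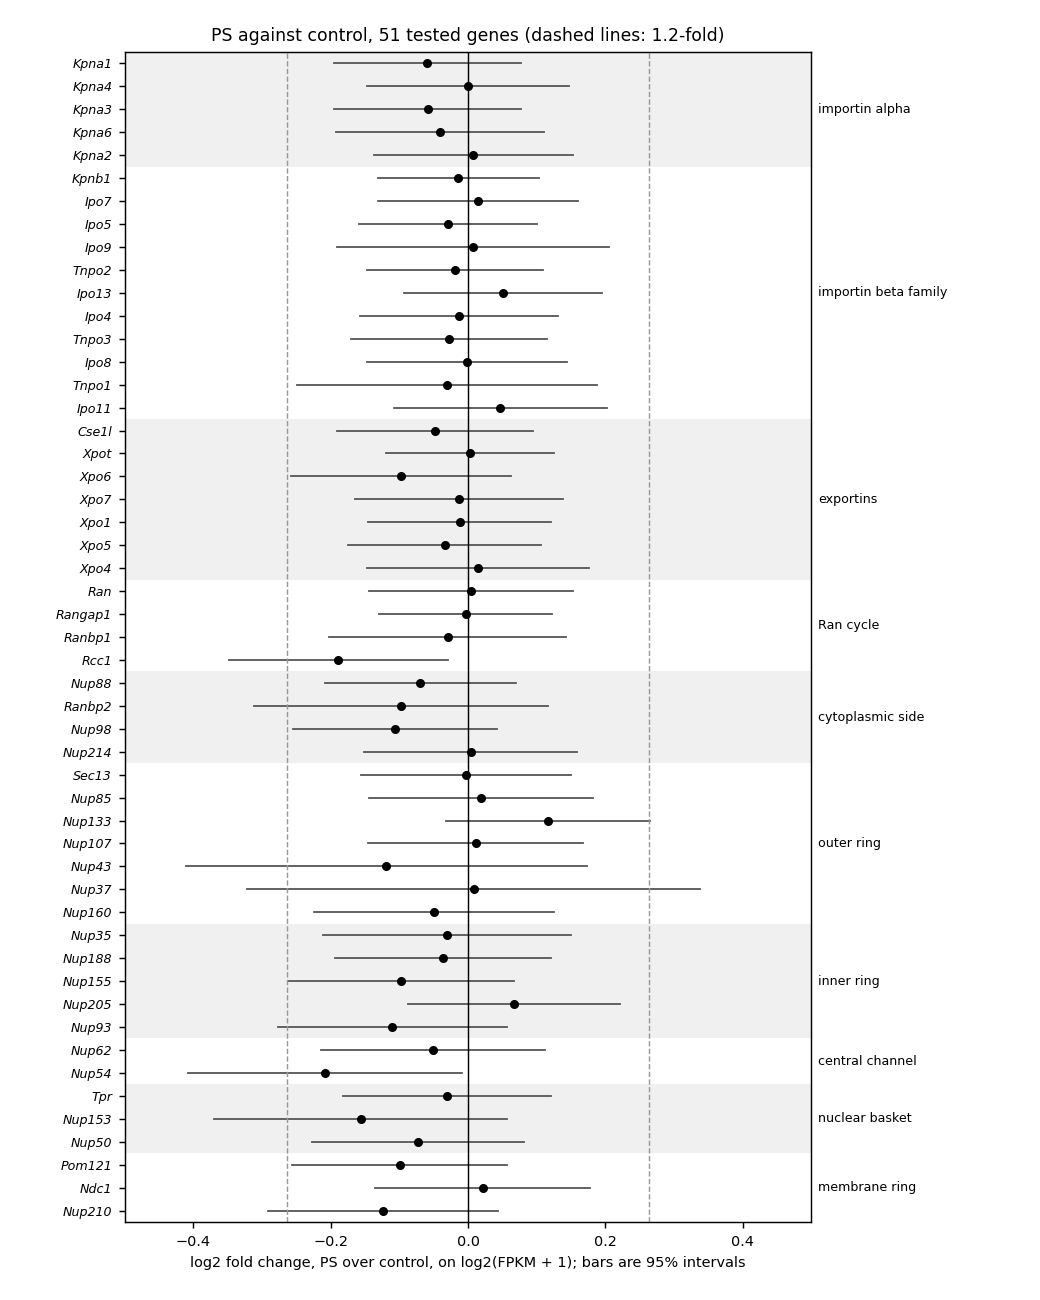
Log2 fold change of PS over control for the 51 tested members on the log2(FPKM + 1) scale (points), with 95% intervals from limma (bars), grouped by role and ordered by level within a role; dashed lines mark a 1.2-fold change. Points lie between -0.21 for Nup54 and 0.12 for Nup133, and all intervals but those of Nup54 and Rcc1 include 0.

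The 6 libraries rested on 39239183 to 40335590 reads, as recovered from the steps of the FPKM values. Marker genes of brain cell types were checked, which cannot tell whole brain from a part of it. Neuronal markers summed to 1839 to 2003 FPKM in PS libraries and 1919 to 1996 in control libraries. Markers of astrocytes, oligodendrocytes, oligodendrocyte precursors, microglia and endothelium were present in all libraries. None of these lists had a gene at 0. Lower in PS were 0 of 5 astrocyte, 0 of 5 oligodendrocyte, 2 of 5 microglia and 2 of 6 neuronal markers, with 0 called. Oligodendrocyte markers summed to 1300 to 1471 FPKM in PS libraries and 951.5 to 1367 in control libraries. Red-cell markers summed to 56.72 to 99.49 FPKM in PS libraries and 127.4 to 196.4 in control libraries, so this list did not overlap between groups, with 5 of 5 genes lower in PS and 0 called. The sums of oligodendrocyte precursor markers did not overlap either, at 18.15 to 19.36 FPKM in PS libraries and 15.71 to 18.07 in control libraries, with 1 of 3 genes lower in PS and 0 called. Endothelial markers summed to 29.06 to 34.08 FPKM in PS libraries and 34.01 to 41.04 in control libraries, with 4 of 4 lower in PS and only Vwf called. The part of these lists in the members' values was not tested. Markers of dividing cells, which are known to hold high levels of several karyopherins and nucleoporins, summed to under 1 FPKM in every library. Markers of other tissues summed to 5.703 to 9.44 FPKM in PS and 6.285 to 9.83 in control libraries. A principal component analysis set control replicate 2 apart from the other 5 libraries along an axis with 42.35% of the variance.

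Receptors and the Ran cycle had higher FPKM levels than the pore, a description with no test. Their 27 tested members had a median of 19.84 FPKM and 24 of them reached at least 10 FPKM, whereas the 24 tested pore components had a median of 4.875 FPKM and 6 reached 10. FPKM is scaled by gene length, and the length behind each value was recovered with the reads. For several pore genes it was long, at 16743 bases for Nup93, 13396 for Nup160 and 12401 for Nup50, and for the exportin gene Xpo4 it was 15289. Where much of such a gene model is not transcribed in brain, the FPKM understates the level. Nup210l and Nup62cl, relatives of Nup210 and Nup62, were below the filter. Nup62cl stood at 0.201, 0.0839 and 0.116 FPKM in PS libraries and 0.181, 0.0647 and 0.0747 in control libraries, on 6 to 19 reads, and Nup210l rested on 4 to 10 reads.

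**Figure D2:**
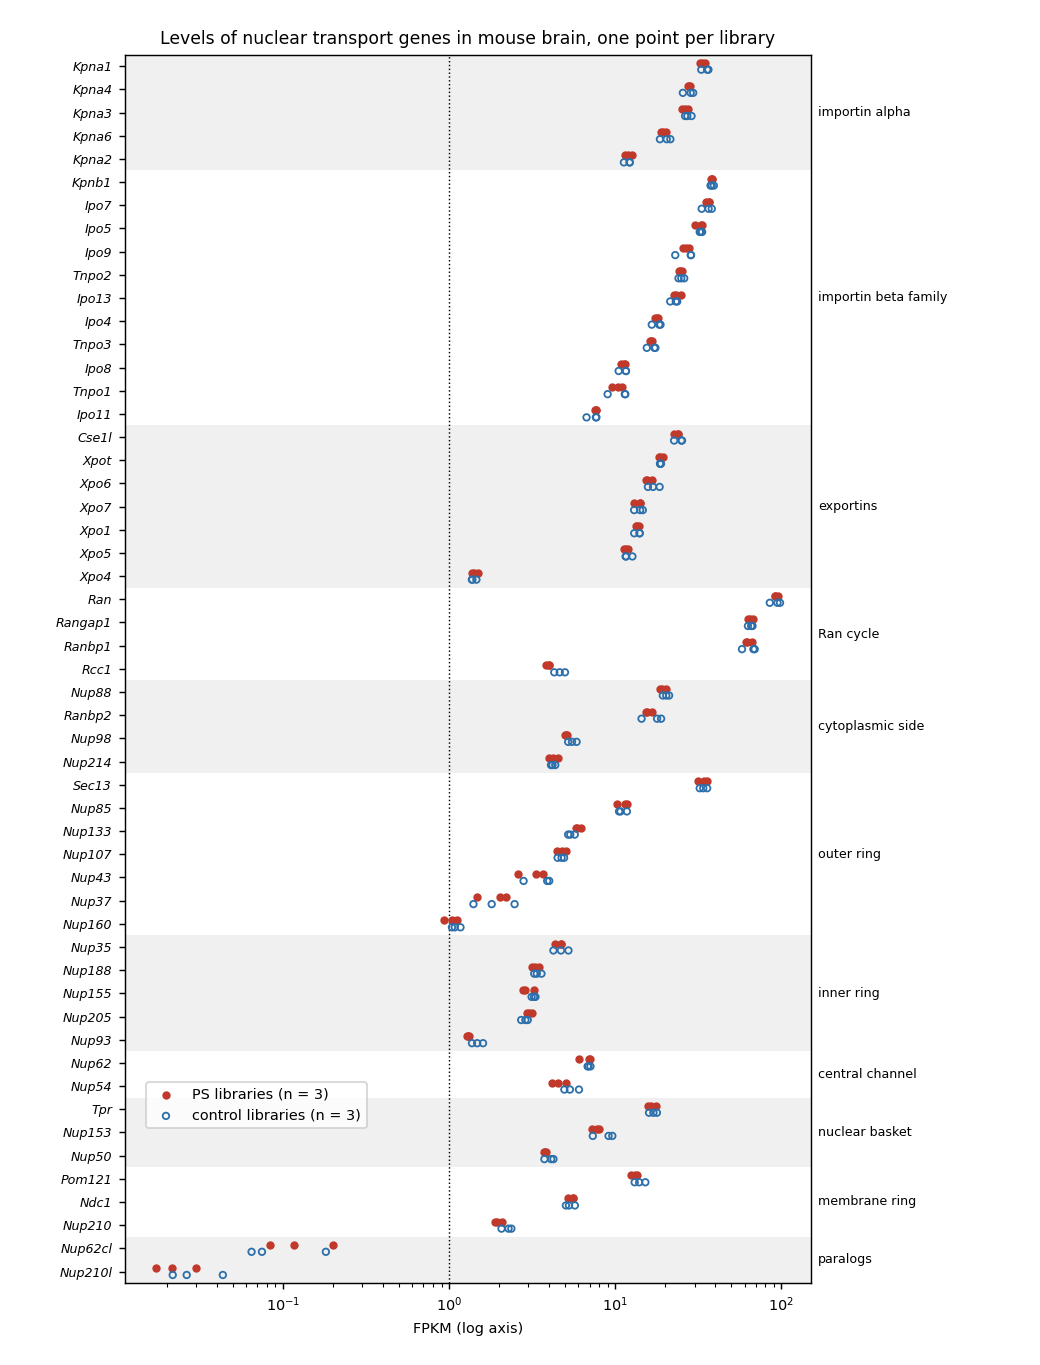
FPKM of all 53 members on a log axis, one point per library, with PS libraries as filled and control libraries as open circles, grouped by role; the dotted line marks 1 FPKM. Ran, Rangap1 and Ranbp1 lie highest, above 57 FPKM in every library, and among tested genes the points of the groups lie fully apart in Rcc1, Nup98, Nup93 and Nup133.

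Importin alpha proteins are adaptors that recognise the classical nuclear localisation signal and join it to importin beta. All 5 tested genes lay between 11.93 and 34.28 FPKM, and none was called (log2 fold changes from -0.06 to 0.01, lowest adjusted p = 0.975 by limma). The most abundant was Kpna1, at 34.6, 33.4 and 32.6 FPKM in PS libraries and 35.7, 36.4 and 32.9 in control libraries, so the groups overlapped. Kpna3 stood at 27.3, 26.2 and 25.3 FPKM in PS libraries and 28.8, 27.1 and 26.3 in control libraries. Kpna2, the adaptor known for its high level in dividing cells, was the lowest of the family, at 11.4, 12.6 and 11.9 FPKM in PS libraries and 12.2, 12.2 and 11.3 in control libraries. The values of Kpna2 are uncertain in another way, since 70.4% of the 50-base words of its annotated transcripts (GENCODE M21, on GRCm38) also occur in transcripts of other genes such as Gm10184, and the sources used here do not say how such reads were counted.

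Importin beta and its relatives carry cargo themselves. Kpnb1, which encodes importin beta and works with every importin alpha, was the most abundant of 11 tested import receptors and among the steadiest members. It stood at 38.2, 37.9 and 37.4 FPKM in PS libraries and 39.2, 38.1 and 37.4 in control libraries (log2 fold change -0.01, SE 0.05, 95% interval from -0.13 to 0.10). Tnpo1, or transportin, imports several hnRNP proteins, and it stood at 11.0, 9.57 and 10.4 FPKM in PS libraries and 11.5, 11.4 and 8.99 in control libraries. The lowest value of Tnpo1 fell in control replicate 3, as did those of Ipo7, Ipo8, Ipo9, Ipo11 and Tnpo3. Receptors other than Kpnb1 and Tnpo1 ran from 7.485 FPKM for Ipo11 to 36.0 for Ipo7. The log2 fold changes of all 11 lay between -0.03 and 0.05. For Ipo4, 58.6% of the annotated exon bases are shared with a predicted gene on the same strand, so its level is uncertain.

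Exportins carry proteins and RNA out of the nucleus, and 0 of 7 tested were called. Cse1l returns importin alpha to the cytoplasm and was the most abundant, at 23.9, 23.8 and 22.5 FPKM in PS libraries and 24.98, 25.21 and 22.6 in control libraries. Xpo1, the receptor for leucine-rich export signals, stood at 13.9, 13.5 and 13.3 FPKM in PS libraries and 14.01, 14.02 and 13.01 in control libraries. Xpo6, which exports actin, stood at 15.5, 16.5 and 15.4 FPKM in PS libraries and 15.7, 18.5 and 16.9 in control libraries, with the highest value in control replicate 2 and the groups overlapping. The log2 fold changes of the 7 genes ran from -0.10 to 0.01 (lowest adjusted p = 0.946 by limma).

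The Ran cycle held the most abundant members and the one with the lowest p. Ran, the GTPase itself, stood at 91.5, 95.3 and 91.5 FPKM in PS libraries and 94.7, 85.1 and 98.1 in control libraries. Its mean was 92.8 ± 2.21 FPKM in PS and 92.6 ± 6.70 in control libraries (SD, n = 3 each). The log2 fold change was 0.004, with a 95% interval from -0.14 to 0.15. Control libraries held both the lowest and the highest value. Of its 50-base words 14.2% occur in other transcripts, among them those of Rasl2-9. Rangap1, which makes Ran hydrolyse GTP in the cytoplasm, stood at 63.0, 67.2 and 65.0 FPKM in PS libraries and 67.0, 62.9 and 65.7 in control libraries. Ranbp1, its cofactor, averaged 63.4 ± 2.77 FPKM in PS and 64.9 ± 6.10 in control brains (SD, n = 3 each).

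Rcc1 encodes the chromatin-bound exchange factor that loads Ran with GTP inside the nucleus. It stood at 3.97, 3.84 and 4.01 FPKM in PS libraries and 4.98, 4.29 and 4.63 in control libraries. All PS values lay below all control values, on 360 to 460 reads per library. Its means were 3.94 ± 0.0901 FPKM in PS and 4.63 ± 0.344 in control libraries (SD, n = 3 each). Its log2 fold change was -0.19 (SE 0.07, 95% interval from -0.35 to -0.03, limma adjusted p = 0.752). With library weights it was called (adjusted p = 0.0252), and in the other 14 alternatives that tested it the adjusted p ran from 0.328 to 0.9996. Of its annotated exon bases 5.4% are shared with Snhg3, a noncoding RNA gene on the same strand, so some reads of either gene may be counted for the other.

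The pore components are given from the cytoplasmic to the nuclear side. Nup88, a partner of Nup214 on the cytoplasmic face, was the most abundant there, at 19.0, 20.2 and 18.5 FPKM in PS libraries and 19.3, 20.3 and 21.1 in control libraries. Ranbp2, the filament protein that holds SUMO-bound Rangap1 at the pore, stood at 16.6, 15.5 and 15.2 FPKM in PS libraries and 17.9, 18.9 and 14.4 in control libraries. In both genes the groups overlapped. Nup98, whose transcript encodes a repeat protein and a scaffold protein as 1 precursor, stood at 4.996, 5.022 and 5.125 FPKM in PS libraries and 5.49, 5.85 and 5.21 in control libraries. All PS values of Nup98 lay below all control values, but the difference did not pass the test (log2 fold change -0.11, 95% interval from -0.25 to 0.04, limma adjusted p = 0.921).

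The outer ring, or Y complex, gives the pore its scaffold. Sec13, its most abundant gene and also a coat protein of vesicles leaving the endoplasmic reticulum, stood at 31.5, 35.8 and 34.3 FPKM in PS libraries and 33.8, 32.2 and 35.7 in control libraries. Nup133 was the only member with all PS values above all control values, at 5.88, 6.23 and 5.77 FPKM in PS libraries and 5.21, 5.36 and 5.70 in control libraries. The difference was not called (log2 fold change 0.12, 95% interval from -0.03 to 0.26, limma adjusted p = 0.891). Nup37 and Nup43, short genes with 77 to 136 and 134 to 205 reads per library, had the largest spread of all members, with residual SDs of 0.24 and 0.21 on the log2 scale. Of the annotated exon bases of Nup133, 12.6% are overlapped by genes on the other strand, whose reads cannot be told apart without strand. Nup37 and Nup43 were chosen after their values were seen.

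The inner ring anchors the scaffold to the membrane and holds the central channel. Its 5 genes lay between 1.39 and 4.661 FPKM. Nup35 stood at 4.73, 4.70 and 4.36 FPKM in PS libraries and 5.23, 4.71 and 4.24 in control libraries, although 80.5% of its 50-base words recur in a predicted gene. Nup155 stood at 2.85, 3.24 and 2.78 FPKM in PS libraries and 3.14, 3.31 and 3.24 in control libraries. The groups overlapped in both genes. Nup205 stood at 3.02, 3.16 and 2.93 FPKM in PS libraries and 2.88, 2.97 and 2.71 in control libraries. Nup93, a linker of the ring, stood at 1.30, 1.28 and 1.31 FPKM in PS libraries and 1.372, 1.6 and 1.475 in control libraries. Its groups did not overlap, with PS lower (log2 fold change -0.11, 95% interval from -0.28 to 0.06, limma adjusted p = 0.939).

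The central channel is filled by proteins with phenylalanine-glycine repeats. Nup62 stood at 6.98, 7.02 and 6.02 FPKM in PS libraries and 6.90, 7.09 and 6.82 in control libraries. Nup54, its partner in the same complex, stood at 4.50, 4.17 and 5.04 FPKM in PS libraries and 6.05, 4.94 and 5.33 in control libraries. PS replicate 3 lay above control replicate 2, so the groups of Nup54 overlapped. Its means were 4.57 ± 0.437 FPKM in PS and 5.44 ± 0.561 in control libraries (SD, n = 3 each). Its log2 fold change of -0.21 was the largest of any member (SE 0.09, 95% interval from -0.41 to -0.01, limma adjusted p = 0.824). With library weights it was called (adjusted p = 0.0321), and in the other 15 alternatives the adjusted p ran from 0.370 to 0.9996. A predicted gene shares 17.9% of its 50-base words.

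On the nuclear side, Tpr forms the filaments of the basket, and it stood at 17.6, 15.7 and 16.3 FPKM in PS libraries and 17.8, 16.97 and 15.96 in control libraries. Nup153, which ties the basket to the pore, stood at 7.95, 7.23 and 7.73 FPKM in PS libraries and 9.11, 9.60 and 7.32 in control libraries. Control replicate 3 fell among the PS values, and leaving it out gave a log2 fold change of -0.26, against -0.16 with all libraries, without a call (limma adjusted p = 0.166, with 0.058 to 0.9996 over all alternatives). Nup50, a basket protein that helps release import cargo, stood at 3.82, 3.73 and 3.79 FPKM in PS libraries and 4.24, 3.74 and 4.11 in control libraries. Of the membrane proteins that hold the pore in the envelope, Pom121 stood at 13.5, 12.5 and 13.2 FPKM in PS libraries and 13.9, 15.2 and 13.1 in control libraries, with 11.9% of its exon bases overlapped by Nsun5 on the other strand. Nup210 stood at 1.94, 1.88 and 2.08 FPKM in PS libraries and 2.28, 2.37 and 2.07 in control libraries, where control replicate 3 overlapped the PS values by a narrow margin.

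**Figure D3:**
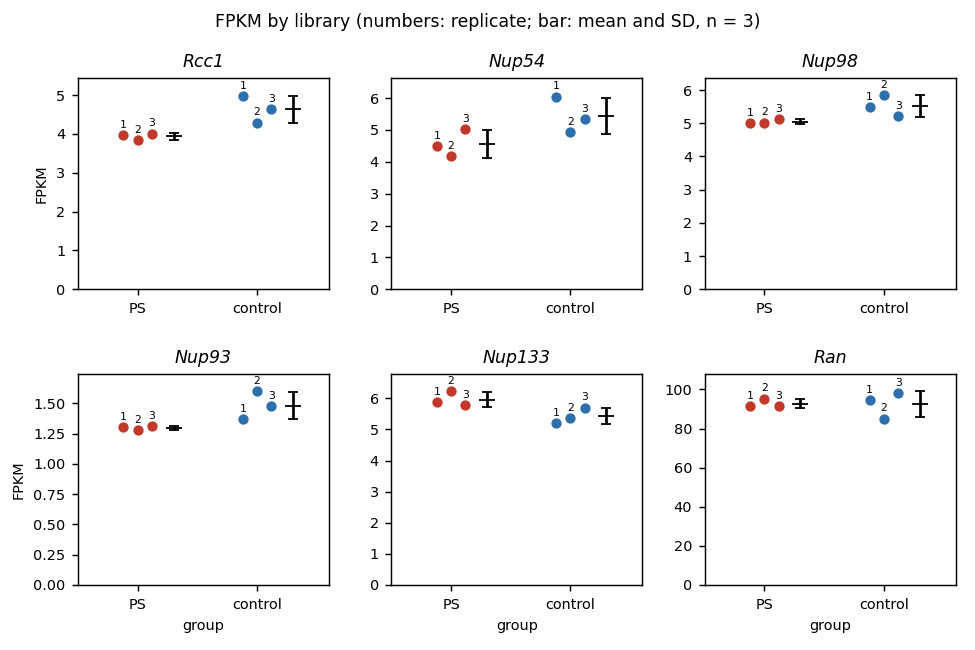
FPKM by library in PS (left) and control libraries (right), where numbers give the replicate and bars the mean and SD (n = 3). Shown are Rcc1 and Nup54, the members with the lowest p, and Ran. Also shown are Nup98, Nup93 and Nup133, whose groups, like those of Rcc1, did not overlap. PS values of Rcc1, Nup98 and Nup93 sit below all control values and those of Nup133 above them, and none of the 6 was called by limma.

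The groups did not overlap in 4 of 51 members, against 11.3% of all tested genes. In 3 of 51 members, Rcc1, Nup98 and Nup93, all PS values lay below all control values, against 6.33% of all tested genes. In 1 member, Nup133, all lay above, against 4.93%. The log2 fold change was below 0 in 35 of 51 members, against 48.6% of all tested genes, with a median of -0.03 against 0.003. The median moved with single libraries: leaving out control replicate 1 gave -0.006, and leaving out control replicate 3 gave -0.058. The SD of the members' median deviation between libraries of a group was 0.026, about the size of the median itself.

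Single libraries held the lowest value of many members in both groups, while the highest values lay mostly in control libraries. Control replicate 2 held the highest value of 20 of the 51 members and the lowest of 4, against 23.75% and 29.99% of all tested genes. PS replicate 3 held the lowest value of 14 members, against 11.19% of all tested genes, and control replicate 3 also of 14, against 17.9%. Control replicates 1 and 3 held the highest value of 13 and 8 members, against 13.66% and 23.04% of all tested genes. In PS replicates 1, 2 and 3 the highest value fell for 3, 7 and 0 members, against 13.84%, 14.36% and 11.35%. In some libraries the deviations were correlated with gene length. The deviation of a library from the mean of the 6, correlated with log2 gene length over the 51 members, gave r = 0.323, -0.447 and 0.175 in PS replicates 1, 2 and 3 and -0.0111, 0.567 and -0.45 in control replicates 1, 2 and 3. Over all 12229 tested genes the same correlations were 0.245, -0.219 and -0.141 in PS libraries and 0.0213, 0.344 and -0.399 in control libraries. These are descriptions across genes of the same libraries, and genes are not independent replicates. Both signs occurred in both groups, and the part of gene length in the differences between groups was not tested.

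**Figure D4:**
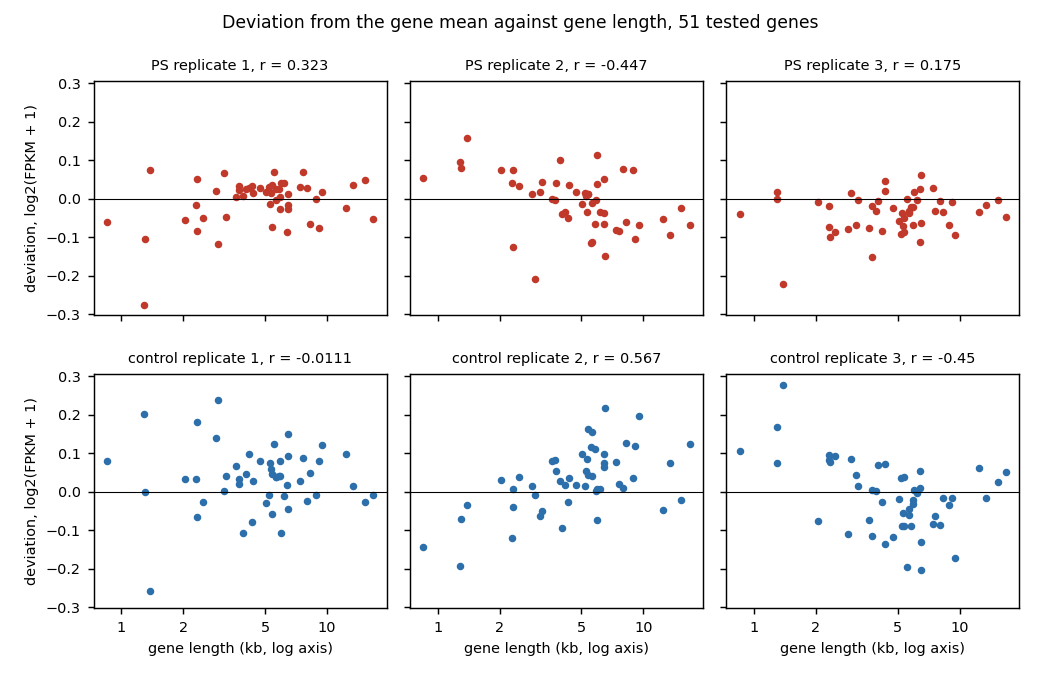
Deviation of each library from the mean of the 6 on the log2(FPKM + 1) scale (vertical axes) against gene length in kilobases on a log axis for the 51 tested members, with PS libraries above and control libraries below. Long genes lie higher in control replicate 2 (r = 0.567) and lower in control replicate 3 (r = -0.45) and PS replicate 2 (r = -0.447).

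**Figure D5:**
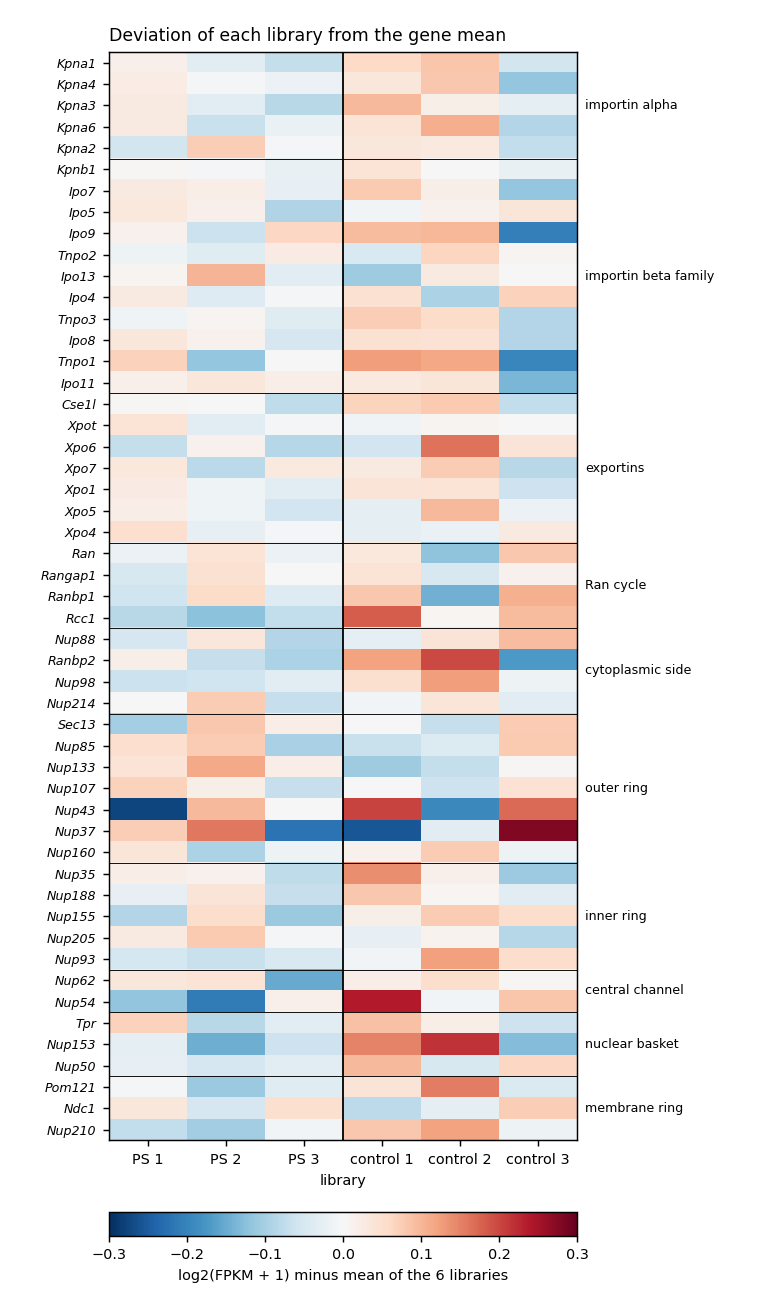
Deviation of each library (columns, PS left of control) from the mean of the 6 libraries for the 51 tested members (rows, by role), in log2(FPKM + 1) units from -0.3 (blue) to 0.3 (red). The deepest colours are those of Nup37 and Nup43, the 2 members with the largest residual SD (0.24 and 0.21), and in both the high and the low libraries lie in both groups.

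The promoters of the members were described from RefSeq sequences of the mouse build GRCm38.p6, in which 43 members had an entry, with 50 start sites in all. The 250 bases before the start held a median of 63.6% G and C and 22 CpG pairs, against 60.4% and 16 for the start sites of all tested genes. Sequence letters of common promoter motifs were searched on both strands, and motifs were allowed to overlap. The GC box GGGCGG was in 64% of member promoters, 58% of those of tested genes and 32.7% of all promoters. The NRF1 motif was in 14%, 7.71% and 3.74%, the E-box CACGTG in 16%, 8.45% and 6.02%, and the ETS motif CCGGAAG in 16%, 12.6% and 6.91%. The CCAAT box was in 44%, 34.7% and 33.8%, the TATA box TATAAA in 10%, 6.19% and 12.4%, and the cyclic AMP element TGACGTCA in 4%, 2.54% and 1.55%. A match of letters is a description and not a binding site.

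The promoters of Rcc1 and Nup54, the members with the lowest p, and of Ran, the most abundant, are shown as the 250 bases before the RefSeq start, 5′ to 3′ on the strand of the gene, with the motif matches in capitals. They lie at chr4:132345751-132346000 on the minus strand, chr5:92435200-92435449 on the minus strand and chr5:129019906-129020155 on the plus strand of GRCm38.p6. That is not the build of the deposited values. The capitals mark a GC box in Rcc1, an E-box and an ETS motif in Nup54, and a GC box, an NRF1 motif, an E-box and a pair of GC boxes in Ran. The Ran promoter had 81.6% G and C, the Nup54 promoter 57.2% and the Rcc1 promoter 49.6%.
Rcc1: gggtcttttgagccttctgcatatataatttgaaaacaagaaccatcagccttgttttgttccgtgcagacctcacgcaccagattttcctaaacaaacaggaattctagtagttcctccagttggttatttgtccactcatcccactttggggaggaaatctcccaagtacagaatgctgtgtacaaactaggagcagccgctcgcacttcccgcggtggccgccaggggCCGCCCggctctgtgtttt
Nup54: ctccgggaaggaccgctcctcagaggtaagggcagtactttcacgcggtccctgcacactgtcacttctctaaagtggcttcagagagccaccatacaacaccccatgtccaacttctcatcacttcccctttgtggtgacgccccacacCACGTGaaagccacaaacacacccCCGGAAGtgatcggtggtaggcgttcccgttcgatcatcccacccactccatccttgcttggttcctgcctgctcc
Ran: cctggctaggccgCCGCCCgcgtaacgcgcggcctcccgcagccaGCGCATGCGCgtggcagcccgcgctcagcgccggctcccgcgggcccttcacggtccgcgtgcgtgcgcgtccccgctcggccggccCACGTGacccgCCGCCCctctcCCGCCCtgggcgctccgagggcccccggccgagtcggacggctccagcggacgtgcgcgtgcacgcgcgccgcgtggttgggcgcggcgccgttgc

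Other genes of nuclear transport, a list of 31 that covers mRNA export, further pore proteins, RanGTP-binding relatives and the lamina, was fitted in the same table. Of the 30 tested, 0 were called by limma, 0 by limma-voom on recovered reads and 1, Alyref, with library weights, which is 3.33% against 5.17% of all tested genes. At an unadjusted p under 0.05, 2 were lower in PS (6.67%) and 0 higher, against 3.29% and 2.66% of all tested genes, and the median log2 fold change was -0.03, against 0.003. Alyref, an adaptor that recruits the mRNA export receptor, stood at 13.1, 13.3 and 12.9 FPKM in PS libraries and 15.9, 16.1 and 13.5 in control libraries (log2 fold change -0.19, limma adjusted p = 0.756, and 0.0232 to 0.9996 over the alternatives). All PS values lay below all control values. Nxt1, which pairs with that receptor, stood at 5.15, 5.52 and 5.90 FPKM in PS libraries and 6.32, 5.83 and 6.92 in control libraries. The lamin genes Lmnb2 and Lmnb1, named for their low p, lay on opposite sides, while Lmna had a log2 fold change of -0.06. Of the same list, Lbr, Emd, Tmpo, Sun1 and Sun2 ran from -0.12 to -0.009, and Banf1 stood at 0.11. Lmnb2 stood at 4.76, 5.16 and 5.12 FPKM in PS libraries and 5.77, 5.85 and 5.47 in control libraries. Lmnb1 stood at 2.84, 2.83 and 3.31 FPKM in PS libraries and 2.57, 2.61 and 2.72 in control libraries. Neither was called (limma adjusted p = 0.819 and 0.891), and the difference between them was not tested.

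Genes of known import cargoes were set beside their receptors, and none of those given here was called by limma. Tardbp, which encodes TDP-43, stood at 19.3, 18.7 and 18.5 FPKM in PS libraries and 19.4, 19.0 and 18.0 in control libraries. The groups of Tardbp overlapped, as they did in the cargo genes that follow. Hnrnpa1 stood at 94.4, 96.3 and 102.6 FPKM in PS libraries and 91.2, 79.5 and 105.9 in control libraries, so control libraries held both extremes. Hnrnpa2b1, another RNA-binding protein gene, stood at 62.5, 62.8 and 60.2 FPKM in PS libraries and 62.0, 59.2 and 62.5 in control libraries. Ewsr1 stood at 30.1, 31.1 and 32.0 FPKM in PS libraries and 28.8, 30.2 and 36.5 in control libraries, with the extremes again in control libraries. Taf15, which encodes a further RNA-binding protein, stood at 6.10, 6.25 and 6.14 FPKM in PS libraries and 6.43, 6.23 and 6.83 in control libraries. RNA levels measure neither the amount of these proteins nor where in the cell they lie.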

How the data were processed

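RNA sequencing libraries of mouse brain, 3 PS and 3 control, were grouped by their titles. For each library the authors deposited FPKM values, read numbers scaled by gene length and by sequencing depth. Per the labels' protocols, RNA came from a TRIzol extraction and a VAHTS V6 library kit. The submitters' processing notes list fastp, HISAT2, HTSeq, R 3.2.0 and GRCm39 with no settings, so whether reads were counted by strand is unknown.

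Genes with a mean of at least 1 FPKM were kept (12229 of 27378) and compared as log2(FPKM + 1) with limma 3.58.1 in R 4.3.3 (group only, variance trend, two-sided, Benjamini-Hochberg over all tested genes, called at an adjusted p under 0.05). The offset understates changes of low genes. Reads were recovered by searching for the totals and gene lengths that make the FPKM values whole, within 0.02 reads, which succeeded for 99.99% of 26556 genes, and limma-voom was run on them as an alternative. Libraries of a group differed by more than sampling noise (chi-square per degree of freedom 8.029 to 29.31), so none was treated as a copy. With 3 libraries in each group, exact permutation reaches no p below 0.1 and was not used.

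Both groups are numbered 1 to 3, and the labels do not link the numbers. Deviations from the group means correlated at 0.181, 0.185 and 0.161 between same-numbered libraries and at -0.217 to 0.025 between the other pairs. Deviations within a group sum to 0, so these correlations depend on each other. Blocked values are given where they matter. This pairing comes from the data. Other alternatives were offsets, filters, rescalings, no variance trend, library weights and each library left out. The pipeline was tested on simulated reads with the same dispersion for every gene and no shifts of single libraries. That run checked the code and not the error rates in these libraries. Overlap with other genes was measured in GENCODE M21 (GRCm38), whose coordinates were not mixed with the files. The members and lists were chosen with earlier results of these data known. Values by library are given for every called member, of which there were none, for the 16 members with the lowest unadjusted p, the most abundant member of each role, and Kpnb1, Kpna2, Tnpo1, Cse1l, Xpo1, Ran, Rangap1, Nup62 and Nup98, and, outside the members, for the 4 other transport genes with the lowest p and the cargo genes, 1 of which is not reported here.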

Additional observations from a re-analysis of the deposited data

How the results depend on the processing

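No member was called in 15 of 16 alternatives. Library weights called 2, Rcc1 and Nup54, and 1 gene of the other transport list, Alyref. The 20 calls over all genes became 1 with no filter, 9 with a mean of at least 5 FPKM, 632 with library weights and 48 with the replicate block, and 0 to 66 with a library left out (2 without control replicate 1, 66 without control replicate 3, 2 without PS replicate 1 and 0 without PS replicate 2). The block gave 0 calls among members, with a lowest adjusted p of 0.526, and 0 among the other transport genes and the cargo genes given here. The members' median log2 fold change of -0.029 ran from -0.0580 to -0.00587 with a library left out. Of 37 named genes, 23 kept the sign of their log2 fold change in every alternative that tested them. In the other 14 the sign turned. With library weights it was -0.0196 for Kpna2, -0.0240 for Ran, 0.00720 for Sec13, -0.0372 for Tardbp, 0.0900 for Ewsr1 and -0.00500 for Hnrnpa2b1, and with quantile normalization -0.00336 for Ran; the cause was not tested. With a library left out it ran, for Kpna2 from -0.0278 to 0.0374, for Kpnb1 from -0.0289 to 0.00307, for Nup35 from -0.0920 to 0.0321, for Nup62 from -0.0843 to 0.0116, for Ran from -0.0545 to 0.0462, for Rangap1 from -0.0288 to 0.0197, for Sec13 from -0.0435 to 0.0478, for Tnpo1 from -0.137 to 0.0242, for Tpr from -0.0727 to 0.00480, for Xpo1 from -0.0458 to 0.00488, for Tardbp from -0.0265 to 0.0244, for Ewsr1 from -0.0928 to 0.0734, for Hnrnpa1 from -0.00816 to 0.196 and for Hnrnpa2b1 from -0.0107 to 0.0327. Depth limits Nup37, Nup43, Nup62cl and Nup210l most. All alternatives listed were run, and a filter at 5 FPKM left 37 members.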

Other observations

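Nupl1 and Nupl2 are older symbols of the channel nucleoporin gene Nup58 and the cytoplasmic nucleoporin gene Nup42, and their names as listed lie outside the rule. They were looked at after the member values were seen. Nupl1, which completes the channel complex with Nup62 and Nup54, stood at 8.49, 7.54 and 7.87 FPKM in PS libraries and 8.74, 8.95 and 7.96 in control libraries (log2 fold change -0.09, limma adjusted p = 0.951). Nupl2 stood at 2.32, 2.24 and 2.13 FPKM in PS libraries and 1.88, 2.09 and 2.43 in control libraries (log2 fold change 0.05, limma adjusted p = 0.984). The groups overlapped in both genes.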
